A study of Labeotropheus fuelleborni x Mchenga conophoros and Petrotilapia nigra x Mchenga conophoros and Petrotilapia nigra x Aulonocara baenschi with 10 samples.

Results

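The genes described here were higher in the brains of social sand males than in those of social rock males. They are 90 of the 32455 loci in the count table of this series on F1 hybrid males of Lake Malawi cichlids. Levels were CPM, the count of a locus scaled to a common library total. A gene belonged to the set when its CPM in every social sand male was above its CPM in every social rock male, its mean over social sand males was at least 1.5 times that over social rock males, and its mean over all 10 males was at least 50 CPM. The fold and the order left 196 loci, the mean level left 95 of these, and 5 of them were set aside by the rule (gene6157, rfc1, faap100, ten1 and tti2). The genes were thus chosen by their CPM in social sand and social rock males, and that difference is described here without a test.

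Whole-brain mRNA was sequenced from 10 males, each 1 library, taken during courtship in a tank that offered rock on one side and sand on the other. Every male was an F1 hybrid of a rock-dwelling father and a sand-dwelling mother. The 2 lone males were housed without a rival and courted over rock. The 4 social sand males each shared the tank with a brother and courted over sand, where they built bowers, and the 4 social rock males were those brothers and courted over rock. The dyads came from 4 broods. Brood 1 was Petrotilapia nigra by Mchenga conophoros, brood 2 Petrotilapia nigra by Aulonocara baenschi, brood 3 Metriaclima zebra (Maylandia in the labels) by Tramitichromis intermedius, and brood 4 Labeotropheus fuelleborni by Mchenga conophoros. By the series' description, males of 1 cross are siblings from 1 brood, so that the lone male of brood 4 was a further brother of that dyad, and the lone male of brood 5 had a Metriaclima zebra father and a Mchenga conophoros mother. The labels give neither an age nor a treatment. The males took up a habitat themselves and the social rock brother was the larger one by the study's account. The sample labels end in SUB for social sand males and in DOM for social rock males. The study holds that its data do not seem to follow a pattern of dominant and subordinate males. Body size, labelled rank and courtship site cannot be told apart.

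Rock-dwelling cichlids of Lake Malawi hold territories over rocky reefs for much of the year, whereas sand-dwelling males often court on leks beside bowers that they build from sand. Hybrid males carry both parental genomes and can show either way of courting. Whole-brain RNA mixes neurons, glia, blood and vessel cells, so a transcript level reflects both what cells make and how many cells of each kind are present.

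The same conditions with the direction turned round were met by 277 loci. How far the 2 counts lie apart depends on the scaling, since with TMM-adjusted library sizes 211 loci met the rule and 268 its mirror image, and with DESeq2 size factors 146 and 296. Within the set, the fold of social sand over social rock males ran between 1.504 and 3.48 with a median of 1.76, and 14 genes had a fold of at least 2. Mean levels ran between 50.3 and 2767 CPM with a median of 145 CPM. Among the genes just inside the conditions, gene9813 had a mean of 50.3 CPM, gene4516 a fold of 1.504, and gene11162 a lowest social sand value of 372.5 CPM against a highest social rock value of 371.6 CPM. Just outside them, gene17184 had a mean of 47.6 CPM, gene20334 a fold of 1.49, and gene18053 a lowest social sand value of 400.7 CPM against a highest social rock value of 401.5 CPM. Names are known for 23 of the 90 genes, and the other 67 carry a gene number only. The names come from a list of genes that the study called different between the same males, so the larger folds of named genes (median 1.94, against 1.62 for the others) are not independent of how names were given.

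Libraries held 375132 and 457974 counts in lone males, 206320 to 335551 in social sand males and 492489 to 694114 in social rock males, and every social sand total lay below every social rock total. At that depth 89 of the 90 genes had at least 10 counts in every library, and the lowest count was 9. Loci with a count above 0 numbered 15827 and 15776 in lone males, 11357 to 13199 in social sand males and 15483 to 16629 in social rock males. The lone male of brood 4 had 15827 such loci at 375132 counts, and the social sand male of brood 1 had 13199 at 335551 counts. What part depth has in this was not tested. The 90 genes together took 1.62% and 1.51% of the counts in lone males, 2.81%, 2.95%, 2.72% and 3.18% in social sand males of broods 1 to 4, and 1.76%, 1.78%, 1.78% and 1.59% in social rock males. Fewer cells of a type and less RNA per cell cannot be told apart in such whole-brain libraries. Marker genes of other cells moved with the groups. The summed level of 10 neuronal markers was 4463 to 6094 CPM in lone males, 1020 to 1667 CPM in social sand males and 2294 to 6063 CPM in social rock males. For 7 astrocyte markers the sums were 4448 to 4974 CPM in lone males, 673 to 1308 CPM in social sand males and 1965 to 6491 CPM in social rock males, and for 2 myelin markers 2692 to 3269 CPM, 337 to 849.7 CPM and 1326 to 3690.4 CPM in the same order of groups. Between social sand and social rock males 5 of the 10 neuronal markers, 7 of the 7 astrocyte markers and 2 of the 2 myelin markers were called lower by the gene-level test described below, and none was called higher. Over all genes tested, 3.14% were called lower and 0.323% higher. None of these markers was at 0 in every library. Both genes that the leukocyte marker list matched, DEF6 and perforin, are themselves among the 90 genes, and none was matched for erythrocytes, endothelium, pituitary or photoreceptors. The leukocyte list left out other immune genes that the study named, gene6157 among them. These lists hold only genes that the study had called on the same males, and the part of cell makeup in the levels of the 90 genes was not tested. In libraries thinned to the smallest total, 75 loci met the rule, 50 of them among the 90.

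**Figure D1:**
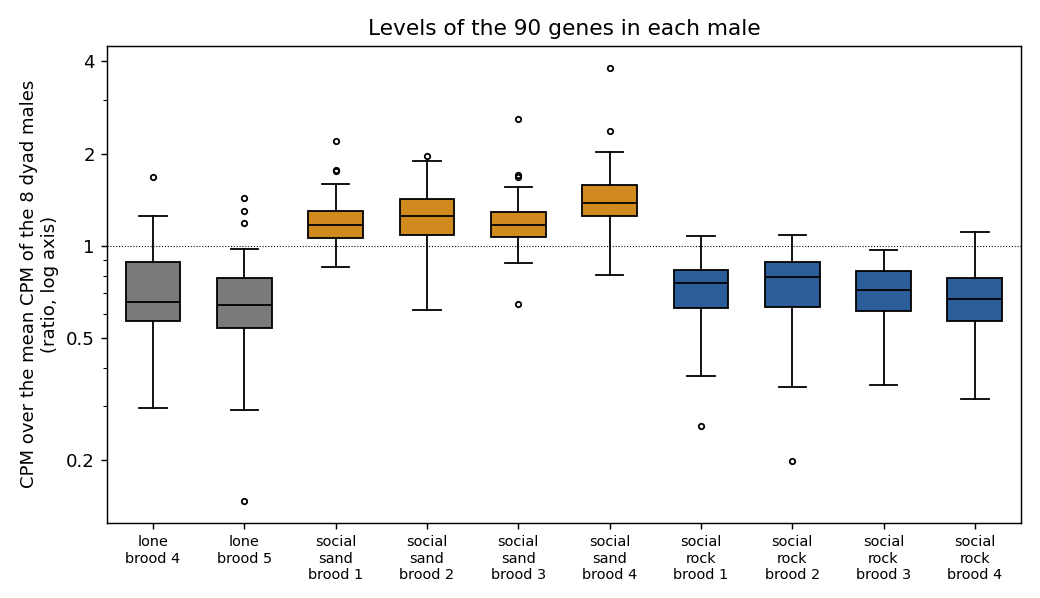
Level of each of the 90 genes in each male (boxes, median and quartiles, whiskers to 1.5 times the box height, circles beyond), as CPM divided by the mean CPM of the 8 dyad males, on a log axis. Medians are 0.655 and 0.640 in lone males, 1.17 to 1.38 in social sand males and 0.672 to 0.790 in social rock males.

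The social sand male of brood 4 stood highest. It had the highest of the 4 social sand values for 43 of the 90 genes, while the males of broods 1, 2 and 3 had it for 11, 26 and 10. Its rock brother had the lowest of the 4 social rock values for 32 genes, more than the 18, 19 and 21 of the other broods. Between brothers, the median ratio of social sand to social rock was 1.61 in brood 1, 1.61 in brood 2, 1.65 in brood 3 and 2.05 in brood 4, and over all 2924 loci with a mean of at least 50 CPM these medians were 0.948, 1.05, 0.911 and 1.09. A ratio of at least 2 was reached by 22, 23, 19 and 49 genes in broods 1 to 4. All 90 ratios were above 1 in every brood because the rule asks for it. Brood 4 also had the smallest share of counts in its most abundant locus, 2.27% in the social sand male and 1.58% in the social rock male, against 12.5% to 16.7% and 11.6% to 16.5% in the other broods. The most abundant locus was not the same in all libraries, with 2 different loci among the 10. With each library's own most abundant locus left out of its column sum, the median ratios were 1.69, 1.54, 1.72 and 2.07, an alternative chosen after the data were seen.

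**Figure D2:**
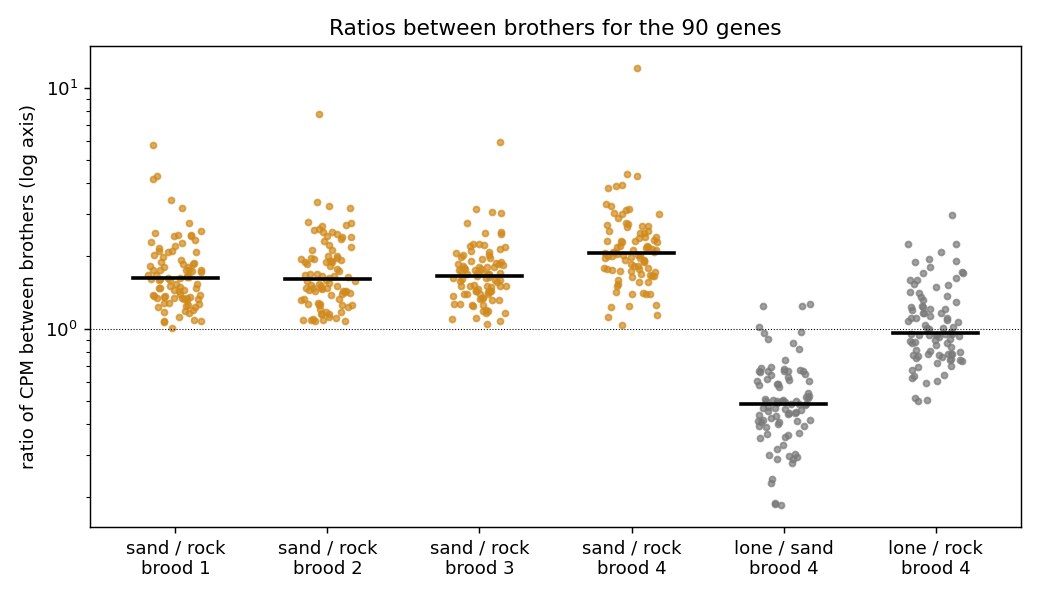
Ratio of CPM between brothers for each of the 90 genes (points) with the median (bars), on a log axis, for social sand over social rock in broods 1 to 4 and for the lone male of brood 4 over its social sand and its social rock brother. Medians are 1.61, 1.61, 1.65 and 2.05 between the dyad brothers, 0.485 for lone over social sand and 0.959 for lone over social rock.

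The lone males took no part in the order or the fold of the rule, although they entered the mean level. They courted over rock, as the social rock males did, but had no rival. For most of the 90 genes their mean lay below the social sand mean and nearer to the social rock mean. Both lone males were below every social sand male for 74 of the 90 genes (82.2%), against a background of 17.4% of the 2924 loci. No gene had a lone mean above the social sand mean. For 84 genes (93.3%) the lone mean was nearer the social rock mean than the social sand mean, as it was for 78.8% of the 2924 loci. Since the rule chose high social sand values and low social rock values, both positions of the lone males carry that choice and are given as a description.

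Against the social rock males, 27 of the 90 genes (30% against 46.3% of the 2924 loci) had both lone males within the social rock range. Both lone males were below every social rock male for 17 genes (18.9%), against a background of 8.04%, and above every one of them for 5 genes (5.56%), against 4.1%. The count of 17 depends on having both lone males, since it was 27 with only the lone male of brood 5 and 31 with only the lone male of brood 4. The lone mean was below the social rock mean for 57 genes (63.3% against 48.4%). Counted in the brood that holds all 3 contexts, the lone male of brood 4 was below his social sand brother for 86 of the 90 genes with a median ratio of 0.485, and below his social rock brother for 47 genes with a median ratio of 0.959. Over the loci with a mean of at least 50 CPM and a count in the brother, these medians were 0.894 and 0.953. The ratio to the social rock brother was thus near that of all loci, and the share of all loci below each brother was not counted.

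**Figure D3:**
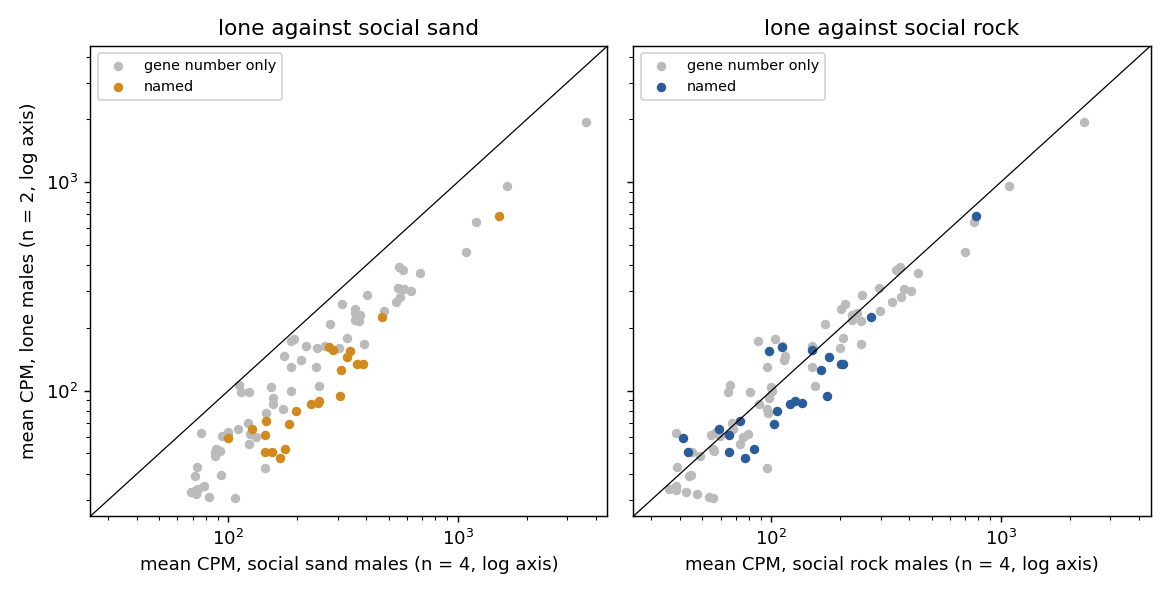
Mean CPM of the 2 lone males against the mean of the 4 social sand males (left) and of the 4 social rock males (right) for each of the 90 genes, on log axes, with the line of equal levels and the 23 named genes in colour. All 90 points lie below the line on the left, and 57 of 90 do on the right.

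Gene-level tests used edgeR's quasi-likelihood test on the raw counts of the 7733 genes that passed its low-count filter, with all 10 libraries in 1 fit and libraries scaled by TMM (trimmed mean of M-values). Calls needed a fold of at least 2 and, after Benjamini-Hochberg adjustment over the 7733 genes, a p under 0.05. All 90 genes were among those tested. Fold changes from this fit are given on the log2 scale with an approximate standard error (SE). It is the size of the log2 fold change divided by the square root of the test's F statistic. The p-values measure only the spread between these males. Between lone and social sand males, 36 of the 90 genes were called lower and 0 higher, where 1.53% of all genes tested were called lower and 6.96% higher. The test reuses the social sand values that the rule required to be high, so a lower level in lone males is favoured by the choice of genes, and neither these calls nor the p-values of single genes below are independent support for a difference. All 90 log2 fold changes were negative, with a median of -1.18 where the median over all genes was 0.07. Of the 36 calls, 16 fell on the 23 named genes and 20 on the 67 others. The calls need both lone males. With 1 lone male left in the group, which is then assumed to vary like the other groups, 1 gene was called without the lone male of brood 4 and 0 without that of brood 5. Each of the 16 named calls was lost when either lone male was left out, and the highest adjusted p of edgeR over all fits with a library left out was 0.121 to 0.291 for these genes. At an unadjusted p under 0.05 the count with both lone males was 76 of the 90 genes, beside 2362 of the 7733 genes tested. In the values that follow, lone males are listed by brood (4 and 5), as are social sand and social rock males (1 to 4), fold changes are log2 ± SE for lone against social sand males unless said otherwise, and CPM is not scaled to gene length, so levels are compared between males and not between genes.

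Between lone and social rock males, 0 of the 90 genes were called in either direction, and neither were any others, so that 0% of the genes tested were called higher and 0% lower. DESeq2 and limma-voom also called 0 of the 90. The absence of other calls depended on the setting. Without the low-count filter, 18 of 22617 genes were called higher and 34 lower in lone males. When the social sand male of brood 2, 3 or 4 was left out, 3 were called higher. Of the 90 genes, 0 were called in these fits. At an unadjusted p under 0.05 there were 7 of the 90 genes and 275 of the 7733, and the 7 became 26 when the social rock male of brood 4 was left out and 2 when the lone male of brood 4 was. The median log2 fold change was -0.28 over the 90 genes, with 69 negative and 21 positive and a median SE of 0.38, and 0.05 over all genes. With library totals as the scale these medians were -0.11 and 0.19. Such an error leaves room for differences in both directions. The comparison shares the lone males with the one before, and both share their dyad males with the rule. Between social sand and social rock males, the contrast that chose the genes, 14 of the 90 genes were called higher, beside 0.323% of all genes tested called higher and 3.14% called lower. With brood as a block this count was 26, with limma-voom it was 2, with library totals as the scale it was 2, and without the low-count filter it was 3, and nothing is read from it.

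The named genes are taken in an order by annotation that was set after their values were seen and was not tested. The first 6 each passed the test for a lower level in lone males than in social sand males, under the limit just given for social sand values that chose the genes. Transcription factor IIIA (LOC101483560) is a zinc finger protein that starts transcription of 5S ribosomal RNA genes by RNA polymerase III. It had 42.7 and 52.4 CPM in lone males, 104, 179, 162 and 227 CPM in social sand males and 93.4, 64.8, 65.4 and 83.2 CPM in social rock males. Both lone males were below every social rock male, the social rock males were below every social sand male, and the log2 fold change of lone against social sand males was -2.08 ± 0.42 (SE, edgeR adjusted p = 0.00824). The gene polr2d encodes a subunit of RNA polymerase II, which transcribes protein-coding genes. Its level was 64.0 and 41.5 CPM in lone males, 119, 213, 178 and 195 CPM in social sand males and 81.2, 77.8, 103 and 73.3 CPM in social rock males. As with transcription factor IIIA, the 3 groups did not overlap and the lone males were lowest (-2.03 ± 0.41, edgeR adjusted p = 0.00844).

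Histone H4 (LOC101482757), a core protein of the nucleosome, had 58.6 and 63.3 CPM in lone males, 131, 116, 121 and 211 CPM in social sand males and 75.1, 53.3, 60.1 and 73.3 CPM in social rock males. The lone males lay within the social rock range, and a single social sand male, that of brood 4, stood apart at the top. Its log2 fold change of lone against social sand males was -1.51 ± 0.39 (SE, edgeR adjusted p = 0.0258), a call that was lost with library totals as the scale, without the low-count filter and in libraries thinned to the smallest total, where the adjusted p reached 0.0805. Histone genes have near-identical copies that can share reads, and the human gene that the study paired with this locus is a histone H2A gene, so that the identity of the signal is uncertain. LOC101481474, an uncharacterized locus whose human analog in the study's list is the nuclear body protein SP140, showed 56.0 and 45.9 CPM in lone males, 107, 208, 118 and 187 CPM in social sand males and 87.3, 64.8, 38.9 and 71.3 CPM in social rock males. Its lone males were within the social rock range and below every social sand male (-1.87 ± 0.45, edgeR adjusted p = 0.0176).

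Of the other 2, zbtb3 encodes a protein with a BTB domain and zinc fingers, a structure shared by many transcription repressors. Its values were 192 and 258 CPM in lone males, 486, 553, 434 and 407 CPM in social sand males and 270.1, 284, 325 and 204 CPM in social rock males. Of the lone males, 1 lay below the social rock range and 1 within it, and the fold change of lone against social sand males was -1.35 ± 0.34 on the log2 scale (edgeR adjusted p = 0.024), a call also lost when brood 1, 2 or 3 lacked its social sand male. LOC112435403 derives from a piggyBac transposon, a family of DNA elements whose transposase was taken over by the host genome in several lineages. It was counted at 88.0 and 50.2 CPM in lone males, 146, 233, 172 and 187 CPM in social sand males and 97.5, 117, 101 and 97.1 CPM in social rock males. The 4 social rock males were close together, both lone males were below them, and lone was lower than social sand by a log2 fold change of -1.71 ± 0.39 (edgeR adjusted p = 0.0145).

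Genes of the transcription machinery were examined as a list of 4, all tested. Called higher in social sand than in social rock males were 2, transcription factor IIIA and polr2d, beside 0.323% of all genes tested. The rule chose both for high social sand values, so these calls were favoured in advance. The others, not called in that comparison, were cyclin H and a subunit 1 of the Mediator complex. Cyclin H had means of 72.4 CPM in lone, 273 CPM in social sand and 154 CPM in social rock males. The Mediator subunit had 144.9 CPM, 340.1 CPM and 178 CPM in the same groups. All 4 had a positive log2 fold change of social sand over social rock, a direction for which the rule chose 2 of them. In lone males 3 of the 4 were called lower than in social sand males, the 2 genes chosen by the rule among them, beside 1.53% of all genes tested. Translation genes, a list of 15 of which 13 were tested, went the other way in number. Between social sand and social rock males 1 was called higher and 5 lower in social sand males, beside 0.323% and 3.14% of all genes tested. In lone males 12 were called higher than in social sand males, beside 6.96% of all genes tested. Both lists were drawn from genes that the study had called on these males, 596 of whose 647 tested names had a negative log2 fold change of social sand over social rock, and neither count is independent evidence of a direction.

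Next come 3 genes known from immune cells. Perforin-1-like (LOC101487954) is related to the protein with which cytotoxic lymphocytes open pores in target cells. Perforin levels were 72.0 and 87.3 CPM in lone males, 226, 184, 141 and 239 CPM in social sand males and 112, 98.0, 99.0 and 113 CPM in social rock males. The social rock males differed little among themselves, both lone males were below them, and every social sand male was above them (-1.58 ± 0.36 for lone against social sand, edgeR adjusted p = 0.0139). The homolog of DEF6 (LOC112436015), a protein known from T cells of mammals, stood at 88.0 and 100.4 CPM in lone males, 381, 286, 313 and 247 CPM in social sand males and 183, 228, 152 and 137 CPM in social rock males. The lone males were again lowest without overlap, with a log2 fold change of -2.001 ± 0.40 against social sand (edgeR adjusted p = 0.00824) and of -1.05 ± 0.38 against social rock males (edgeR adjusted p = 0.97).

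Antigen peptide transporter 2 (LOC101483734), part of the pump that carries peptides into the endoplasmic reticulum for loading on MHC class I, had 66.6 and 34.9 CPM in lone males, 101, 58.2, 60.6 and 359 CPM in social sand males and 44.7, 47.5, 51.3 and 29.7 CPM in social rock males. The value in the social sand male of brood 4 was far above the other 3, and the lone male of brood 4 overlapped the lower social sand males, while no social rock male did. The mean was 145 ± 144 CPM in social sand males and 43.3 ± 9.46 CPM in social rock males (SD, n = 4 each), and lone against social sand males gave -1.74 ± 0.64 on the log2 scale (edgeR adjusted p = 0.0849), which did not pass the test. The immune list held 8 genes of the study's own list, of which 5 could be tested. Of these 5, 2 were called higher in social sand than in social rock males (perforin and gene6157) and 0 lower, beside 0.323% and 3.14% of all genes tested. Both met the conditions of the rule on social sand and social rock values, and gene6157 was set aside only after that. Neither call is thus independent of those values. In lone males 3 were called lower than in social sand males, beside 1.53% of all genes tested. DEF6 and perforin are among these 3, and the rule chose both for high social sand values. The summed level of the 2 leukocyte markers DEF6 and perforin was 159.9 to 188 CPM in lone males, 455 to 608 CPM in social sand males and 249.6 to 326 CPM in social rock males. Both genes were chosen by the rule, so the separation of the social sand from the social rock sums follows from it. Whether blood or immune cell number had a part in these levels was not tested.

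**Figure D4:**
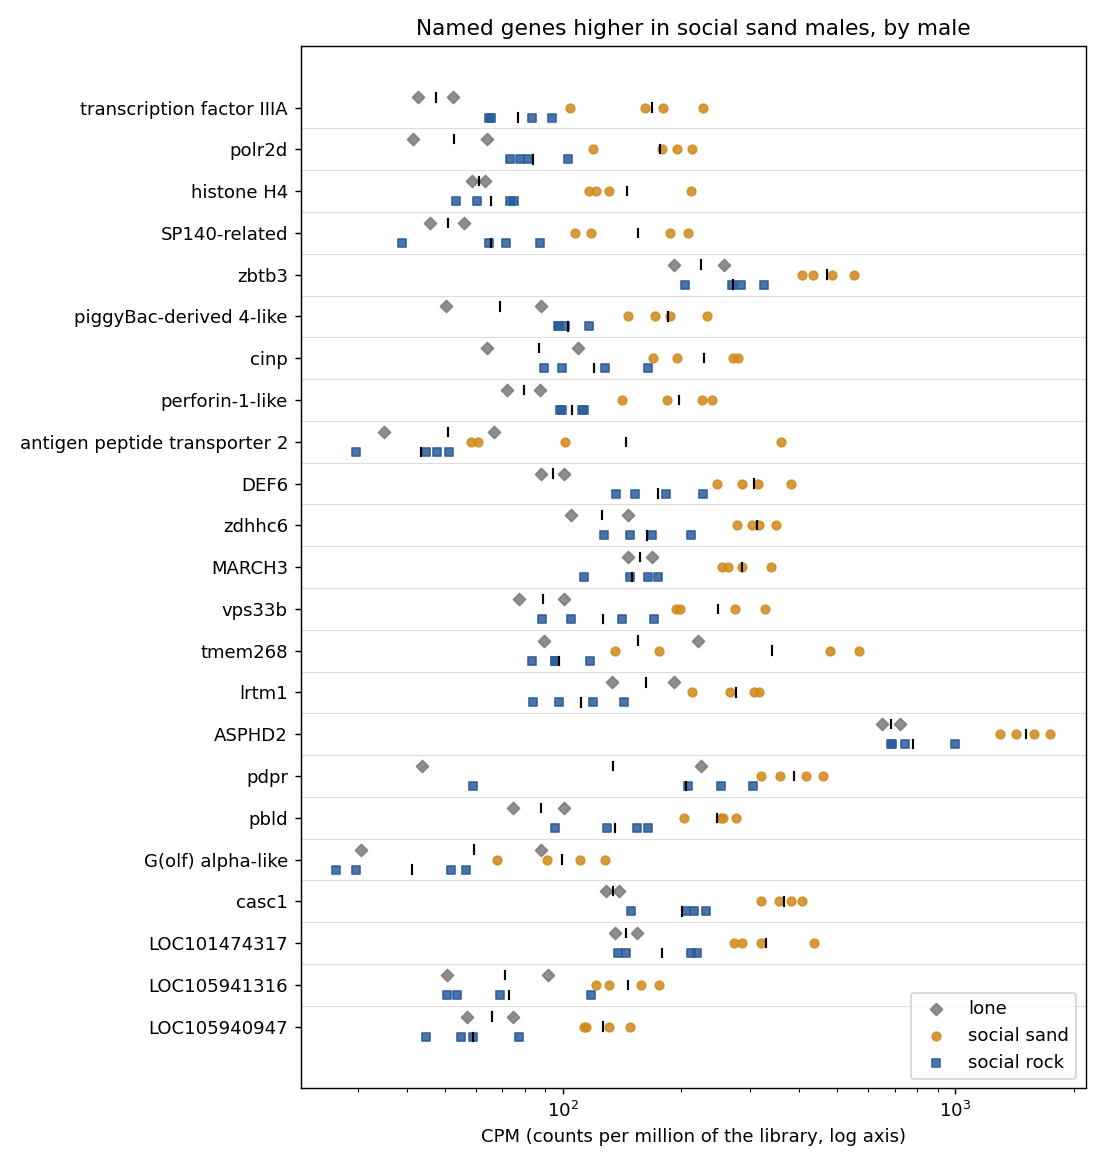
CPM on a log axis of the 23 named genes in lone (diamonds), social sand (circles) and social rock males (squares), 1 point per male, with black ticks at the group means. Social sand points lie above all social rock points for each gene by the rule, and lone points lie below every social sand point except for antigen peptide transporter 2, tmem268 and the G(olf) alpha-like gene.

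Proteins that modify other proteins or work on membranes come next. The gene zdhhc6 encodes an enzyme that attaches palmitate to proteins at the endoplasmic reticulum. It showed 147 and 105 CPM in lone males, 277, 349, 303 and 315 CPM in social sand males and 169, 148, 212 and 127 CPM in social rock males. The lone male of brood 5 was below every social rock male, that of brood 4 within their range, and both were below all social sand males (-1.60 ± 0.36, edgeR adjusted p = 0.0132). MARCH3 (LOC101468443) is a membrane-bound ubiquitin ligase of endosomes, and its levels were 168 and 146 CPM in lone males, 253, 286, 263 and 339 CPM in social sand males and 175, 148, 164 and 113 CPM in social rock males. Both lone males lay within the social rock range, and the fold change of lone against social sand males was -1.14 ± 0.34 on the log2 scale (edgeR adjusted p = 0.0443), a call lost in 8 of the 10 fits with 1 library left out, where the adjusted p reached 0.271, and in 5 of the 6 other settings (library totals or RLE as the scale, limma-voom, no low-count filter and thinned counts), where it reached 0.139.

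The gene vps33b encodes a protein that helps membranes fuse on the way to late endosomes and lysosomes. Its levels were 77.3 and 100.4 CPM in lone males, 274, 194, 199 and 327 CPM in social sand males and 171, 141, 88.4 and 105 CPM in social rock males. The groups of social sand and lone males were separate, by -1.75 ± 0.41 on the log2 scale (edgeR adjusted p = 0.0157), and 1 of the lone males was within the social rock range. The transmembrane protein gene tmem268 had the largest fold of the 90 genes between social sand and social rock males, 3.48, on 221 and 89.5 CPM in lone males, 479.8, 136, 569 and 176 CPM in social sand males and 83.3, 95.1, 95.5 and 117 CPM in social rock males. Social sand males of broods 1 and 3 were well above those of broods 2 and 4, the social rock males were close together, and the lone male of brood 4 was above the lower social sand males. Lone against social sand males did not pass the test (-1.50 ± 0.56 on the log2 scale, edgeR adjusted p = 0.0866).

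For lrtm1, a transmembrane protein with leucine-rich repeats, the values were 192 and 133 CPM in lone males, 307, 213, 266 and 315 CPM in social sand males and 97.5, 83.6, 143 and 119 CPM in social rock males. The lone male of brood 4 stood between the other groups, and that of brood 5 lay within the social rock range. Both lone males were below every social sand male, and their difference from social sand males did not pass the test (-1.06 ± 0.34 on the log2 scale, edgeR adjusted p = 0.0595). Other genes of these processes in the study's list had negative log2 fold changes of social sand over social rock males in most cases. So did 596 of the 647 tested names of that whole list, so the direction is not particular to these processes. Of 18 ubiquitin ligases and conjugating enzymes, 13 were tested, and 1 was called higher (MARCH3) and 3 lower in social sand than in social rock males. Over all genes tested, 0.323% were called higher and 3.14% lower. Among 9 genes of endosomes and lysosomes 5 were tested and 0 called, vps33b being the only one with a positive log2 fold change, and of 3 palmitoyltransferases 2 were tested and 1 called, zdhhc6. The rule chose MARCH3, vps33b and zdhhc6 for their higher level in social sand males.

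Enzymes and their regulators were represented by 3 named genes. ASPHD2 (LOC101478856), named for a domain that it shares with aspartate beta-hydroxylase, had 650.4 and 723 CPM in lone males, 1296, 1740.0, 1428 and 1588 CPM in social sand males and 745, 690.1, 997 and 683 CPM in social rock males. Every social sand male was above every other male, the lone males were at the low end of the social rock males, and lone against social sand gave -1.42 ± 0.28 on the log2 scale (SE, edgeR adjusted p = 0.00781). The gene pdpr encodes the regulatory subunit of the phosphatase that activates the pyruvate dehydrogenase complex, which feeds pyruvate into the citric acid cycle. Its counts gave 224 and 43.7 CPM in lone males, 358, 460.4, 319.9 and 415 CPM in social sand males and 305, 59.1, 253 and 208 CPM in social rock males. The social rock male of brood 2 and the lone male of brood 5 were far below the others, the spread within both groups was wide, and lone against social sand males did not pass the test (-1.85 ± 0.58 on the log2 scale, edgeR adjusted p = 0.0536).

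The gene pbld, named for its likeness to a bacterial phenazine biosynthesis protein, had 74.6 and 100.4 CPM in lone males, 203, 252, 276 and 255 CPM in social sand males and 154, 129.7, 164 and 95.1 CPM in social rock males. Lone males were below every social sand male (-1.77 ± 0.39 on the log2 scale, edgeR adjusted p = 0.013), and 1 of them was below every social rock male. In the list of pyruvate and branched-chain metabolism, 6 genes with 4 tested, 0 were called in either direction between social sand and social rock males. A positive log2 fold change of social sand over social rock was found for 3 of the 4, among them pdpr and pbld, which the rule chose for that direction. The third was an adenylosuccinate lyase-like gene (0.83, edgeR adjusted p = 0.734). Neither that gene nor pbld is annotated by name to pyruvate or branched-chain metabolism, so nothing is read about these pathways from the 3 of 4. The alpha subunit of pyruvate dehydrogenase E1 had -2.93 (edgeR adjusted p = 0.0534), with means of 72.9 CPM in lone, 3.68 CPM in social sand and 34.9 CPM in social rock males.

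Cell cycle, signalling and cilia were each represented by a single named gene. The product of cinp binds the cell cycle kinase CDK2 and acts at sites of DNA replication in human cells. Its values were 64.0 and 109 CPM in lone males, 169.9, 271, 195 and 279 CPM in social sand males and 128, 164, 99.0 and 89.1 CPM in social rock males. The lone male of brood 4 was below every social rock male and that of brood 5 within their range (-1.65 ± 0.43 on the log2 scale for lone against social sand, edgeR adjusted p = 0.0254), a call also lost when brood 3 lacked its social sand male. Of 8 genes of the cell cycle and meiosis 5 were tested, and 0 were called higher and 1 lower in social sand than in social rock males. The one called was cdc37, a partner of the chaperone HSP90, with means of 137 CPM in lone, 16.1 CPM in social sand and 90.2 CPM in social rock males. Of the others tested, none of them called between social sand and social rock males, trip13, an ATPase of the spindle checkpoint and meiosis, averaged 102 CPM in lone, 374 CPM in social sand and 179 CPM in social rock males. In the same order cyclin E1, a partner of CDK2, averaged 32.9 CPM, 65.0 CPM and 22.3 CPM, and the meiosis gene mei1 5.94 CPM, 53.1 CPM and 19.6 CPM. Among the 5 tested, 4 had a positive log2 fold change of social sand over social rock, cinp among them by the rule. Against social sand males, 3 of the 5 were called lower and 1 higher in lone males, beside 1.53% and 6.96% of all genes tested. Of these 3, cinp was chosen by the rule for high social sand values. Between social sand and social rock males, 0.323% of all genes tested were called higher and 3.14% lower in social sand males.

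The G(olf) alpha-like gene (LOC101474191) is related to the G protein subunit that couples odorant receptors, and dopamine receptors of the striatum, to adenylyl cyclase in mammals. It had 88.0 and 30.6 CPM in lone males, 110.3, 67.9, 90.9 and 128 CPM in social sand males and 26.4, 51.9, 56.6 and 29.7 CPM in social rock males. The lone male of brood 4 lay among the social sand males and that of brood 5 among the social rock males, and the difference from social sand males did not pass the test (-1.06 ± 0.52 on the log2 scale, edgeR adjusted p = 0.178). The gene casc1 encodes a protein associated with the dynein arms of motile cilia. Its levels were 139 and 129 CPM in lone males, 355, 407, 380.5 and 319 CPM in social sand males and 231, 216, 205 and 149 CPM in social rock males. The 3 groups did not overlap, with the lone males lowest, and lone against social sand gave -1.75 ± 0.36 on the log2 scale (edgeR adjusted p = 0.00915). Only 1 other gene of the list for ciliated ependymal cells was matched, JNK-interacting protein 4, which is also widely expressed elsewhere, and it was called lower in social sand than in social rock males with means of 107 CPM in lone, 19.9 CPM in social sand and 91.9 CPM in social rock males.

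The last 3 loci of the study's list are uncharacterized. LOC101474317 had 155 and 135 CPM in lone males, 286, 436, 273 and 319 CPM in social sand males and 211, 138, 219 and 145 CPM in social rock males. It was called lower in lone males than in social sand males (-1.46 ± 0.36 on the log2 scale, edgeR adjusted p = 0.0187), and LOC105941316 and LOC105940947 were not (-1.30 ± 0.45 and -1.23 ± 0.39, edgeR adjusted p = 0.0736 and 0.0556). LOC105941316 averaged 71.2 CPM in lone males, 146 ± 24.9 CPM in social sand males and 72.7 ± 31.1 CPM in social rock males (SD, n = 4 for both social groups), and LOC105940947 averaged 65.7 CPM, 127 ± 16.2 CPM and 59.0 ± 13.6 CPM. For both, the lone males lay within the social rock range and below every social sand male.

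Among the 67 genes known by number only, folds of social sand over social rock males ran between 1.504 and 2.15 with a median of 1.62, and 4 were at least 2. The 2 with the highest counts were gene27458 and gene5811. For gene27458 the levels were 1797 and 2083 CPM in lone males, 3672, 3955, 3461 and 3439 CPM in social sand males and 2099.5, 2625, 2616 and 1919 CPM in social rock males, and for gene5811 they were 976 and 949.8 CPM in lone males, 1985, 1580.1, 1407 and 1612 CPM in social sand males and 1056, 1307, 941 and 1030.0 CPM in social rock males. Both showed separate groups of social sand and social rock males, with 1 lone male below the social rock range for gene27458 and both lone males within it for gene5811. Lone males were lower than social sand males by a log2 fold change of -1.19 ± 0.27 for gene27458 (edgeR adjusted p = 0.0141) and -1.06 ± 0.28 for gene5811 (edgeR adjusted p = 0.0272). Within the set of 90, males of 1 group varied with a median coefficient of variation of 17.1% among social sand males and 19.4% among social rock males.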

How the data were processed

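Whole brains of 10 F1 males were profiled from stranded mRNA libraries. The authors removed reads of mean quality below 20, trimmed 3' ends, mapped the rest with TopHat 2.0.9 on assembly MZ_UMD2a of M. zebra, sorted with SAMtools 0.19, counted fragments in HTSeq 0.6.1 and deposited these as raw counts for each locus. For edgeR, the submitters' notes give version 3.6.8. Annotation release, strand setting and handling of multiply aligned fragments are not given in sources used here. Groups came from the sample labels, which end in SUB (social sand), DOM (social rock) or LONE, and the courtship sites are those that the study describes. Library totals ran from 206320 to 694114 counts, so a gene near 10 counts carries a large counting error.

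The rule for the 90 genes was applied to CPM by column sum. Tests were run with edgeR 4.0.16 (R 4.3.3) on raw counts, after filterByExpr (minimum count 10) and TMM scaling, with 3 groups in 1 fit and no block. Alternatives used total-count and RLE scaling, DESeq2 1.42.0, limma 3.58.1 (voom), no filter, thinned counts, a brood block, other thresholds of the rule and each library left out. Scripts for the tests and the rule were tested on simulated data. Same-numbered dyad males are brothers by the series' description, so brood pairs them, and the correlation of brothers' deviations from their group means, over genes, was 0.0666, 0.197, 0.126 and 0.213 in broods 1 to 4. Figures were drawn with matplotlib 3.10.9.

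The rule for named genes allowed every gene of the set with a name in the study's list of called genes, of which 812 matched the table, and of the unnamed ones the 2 with the highest mean CPM and those at the thresholds. Members, gene lists and markers were chosen with earlier results of these data known, and they rest on names from a list the study had called on these males. The authors' fold changes and p-values in that list were not used. Marker lists for neurons, astrocytes, myelin, leukocytes, erythrocytes, endothelium, ependyma, pituitary and photoreceptors were applied to those names. Lists of nuclear receptors (2 genes, 1 tested and 0 called between social sand and social rock males), histones (3, 1 tested and called higher) and zinc finger genes (9, 8 tested, 1 called higher and 2 lower) are not described further. Over all genes tested, 0.323% were called higher and 3.14% lower in that comparison. Sequences and positions are not given.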

Additional observations from a re-analysis of the deposited data

Results flagged for a closer look

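For 46 groups of 4 males (the social sand and the social rock males of each named gene), the highest or lowest male was set against the spread of the others by Dixon's ratio, the gap to the nearest male over the whole range, and 2 groups stood out. In groups drawn from a normal distribution chance alone gives about 1 in 20. These genes were chosen by the same social sand and social rock values, so that rate need not hold here. Histone H4 (LOC101482757) reached 211.4 CPM in the social sand male of brood 4, and the gap took a share of 0.844 of the range of the group. Antigen peptide transporter 2 (LOC101483734) reached 359 CPM in the same male, and the gap took a share of 0.857.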

How the results depend on the processing

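The rule depended on scaling, since 211 genes met it with TMM-adjusted library sizes and 146 with DESeq2 size factors, and 86 of the 90 genes were kept under each. A minimum fold of 2 left 14 genes. With 1 dyad library left out, 97 to 155 genes met it. Thinning to the smallest total gave 75 genes, 50 of them among the 90. Genes called between social sand and social rock males numbered 2 with total-count scaling, 2 with limma-voom, 3 without the low-count filter and 26 with brood as a replicate block, which kept all 14, and 1 to 26 with a library left out. Between lone and social sand males, 20 were called with total-count scaling and 0 to 48 with a library left out, where leaving out a lone male gave 1 and 0. Total-count scaling moved the median over all genes to -0.24 between social sand and social rock males, to 0.40 between lone and social sand males and to 0.19 between lone and social rock males. Both lone males were below every social rock male for 17 to 31 genes with a library left out. Over the 23 named genes and all alternatives between lone and social sand males, a call was lost 50 times and gained 17 times. Single named genes were followed under the alternatives only between lone and social sand males, where none changed direction. No count of genes and no median over the 90 genes changed direction under the alternatives run. The medians over all genes, near 0, did: that between lone and social sand males was -0.12 in thinned libraries and -0.063 when brood 4 lacked its social rock male, that between lone and social rock males was below 0 under 8 of 16 alternatives (lowest -0.078, without the lone male of brood 4), and that between social sand and social rock males was 0.00065 in thinned libraries. The block was not fitted for lone males, 1 of which is the only male of his brood. With 2 lone males and few counts per gene, differences near the calling threshold cannot be resolved.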
